A study of Mus musculus with 6 samples.

Results

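Vmn2r3, Cdsn and Cyb5r1 are 3 mouse genes selected from a heart RNA-sequencing table of 54532 genes because their levels in knockout hearts stood far above those in control hearts. Each gene name matched 1 row of the table. Where 3 values follow for a group, they are its replicates 1, 2 and 3 in that order. Since the members were chosen on the contrast between the groups described here, their levels and fold changes are given as a description, with no test. Heart tissue from 6 adult mice was sequenced, 3 per group. The control mice (Ctrl) were Mrps5 fl/fl, that is, they carried loxP-flanked alleles of Mrps5, which encodes a small-subunit protein of the mitochondrial ribosome. The knockout mice (cKO) were Mrps5 fl/fl; MCM, and also carried the MerCreMer transgene under the αMHC promoter, which drives a tamoxifen-activated Cre recombinase in cardiomyocytes. Both groups received tamoxifen at 8 weeks of age, 45 mg/kg/day for 5 days, and were collected 12 weeks later. Controls therefore had the drug and the floxed alleles but no Cre, so loss of Mrps5 and the presence of active Cre cannot be told apart in this design.

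None of the 3 genes is known mainly for a role in the heart. Vmn2r3 encodes a vomeronasal type 2 receptor, a member of the large class C G protein-coupled receptor family through which sensory neurons of the vomeronasal organ detect peptide and protein pheromones. Cdsn encodes corneodesmosin, a secreted adhesive glycoprotein of the corneodesmosomes that hold together the outermost cells of cornified epithelia until proteases remove it. Cyb5r1 encodes a membrane-bound flavoprotein of the cytochrome b5 reductase family. Reductases of this family pass electrons from NADH to cytochrome b5, which hands them on to enzymes of fatty acid desaturation, sterol synthesis and other oxidations.

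The libraries held 15989322 to 24875499 recovered reads. They are the whole numbers that FPKM (fragments per kilobase of exon, scaled to a library size) times gene length returns. The library size implied by FPKM was below the recovered reads in every Ctrl heart and above them in every cKO heart. In replicate 1 it was 19065651 against 19464289 reads in Ctrl, and 16927105 against 15989322 reads in cKO. How that size was set is not given in the sources used here, and its part in small changes between the groups is not known. Mrps5, the targeted gene, had 5.20, 6.45 and 6.33 FPKM in Ctrl hearts and 1.12, 1.23 and 1.31 FPKM in cKO hearts, so cKO retained 20.4% of the Ctrl mean. The correlation of log2 levels was 0.979 to 0.990 between hearts of 1 group and 0.945 to 0.970 between hearts of different groups. Although the study describes its mice as male, cKO replicate 2 had 4482 reads of Xist and 0 reads of the Y-linked genes Uty, Eif2s3y, Ddx3y and Kdm5d. Atrial markers also varied within groups, with Myl7, Myl4 and Sln summing to 25.2 to 990 FPKM in Ctrl and 105 to 714 FPKM in cKO. Some results are therefore also given without cKO replicate 2, and the part of atrial tissue in any result was not tested.

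To see what kind of sequence lies at the genes' starts, the 250 bases before each start site in RefSeq (GRCm38.p6) were read. The 3 genes had 4 such starts in total, 2 of them of Cdsn. One Cdsn start is the annotated gene start, and the other lies 9027 bases upstream of it and is not shown. The stretches before the annotated Cdsn start (chr17:35551878-35552127, plus strand) and the Cyb5r1 start (chr1:134405531-134405780, plus strand) are shown in lower case, 5′ to 3′. That the genes were high in the same hearts follows from how they were chosen. The stretches are given as a description, and shared control of the genes was not tested.
Cdsn: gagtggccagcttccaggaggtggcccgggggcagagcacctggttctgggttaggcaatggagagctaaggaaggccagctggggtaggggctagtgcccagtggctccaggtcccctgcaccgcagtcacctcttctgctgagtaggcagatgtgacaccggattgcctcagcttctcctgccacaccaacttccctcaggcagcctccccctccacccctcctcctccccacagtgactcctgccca
Cyb5r1: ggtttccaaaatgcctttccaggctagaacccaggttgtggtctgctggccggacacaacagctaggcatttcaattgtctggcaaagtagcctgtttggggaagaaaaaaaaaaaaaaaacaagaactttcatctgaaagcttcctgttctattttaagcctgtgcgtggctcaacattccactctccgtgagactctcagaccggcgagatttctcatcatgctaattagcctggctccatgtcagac
Neither stretch holds capitals, which would mark a match to a searched motif. The motifs were TGATGNAA, the composite element read by ATF4 with C/EBP factors, TGACGTCA, the cyclic AMP response element, and CACGTG, the E-box. None contains another, and both strands were searched from 250 bases before to 50 bases after each start. The 4 windows of the 3 genes had 0 matches, which says only that these letters are not in these windows. Over all 32851 RefSeq windows of 300 bases, 3.97% held the composite element, 1.79% the cyclic AMP response element and 7.15% the E-box. For comparison, of 33 integrated stress response genes with a window, 12 held the composite element. Of the 3 genes of that list with the largest log2 fold change, Mthfd2 had 0 matches to any of the motifs. Gdf15 had an E-box in 1 of its 2 windows and no composite element. The other, Asns, which makes asparagine, has the composite element 23 bases before its start, with the motif in capitals (chr6:7693214-7693243, minus strand).
Asns: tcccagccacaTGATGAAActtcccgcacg
The stretch before the Cyb5r1 start is partly transcribed in the annotation, since a noncoding model begins 222 bases upstream. The Cdsn stretch shown had 64.0% G and C with 3 CpG dinucleotides, and that of its other start 55.2% with 8. The Cyb5r1 stretch had 46.0% with 5, against medians of 52.4% and 6 over all windows. For Vmn2r3, the RefSeq start lies 2292 bases inside the gene body of the table, and all 250 bases before it are exonic in longer models, 84 of them coding, so that stretch is not shown.

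Vmn2r3 went from near the detection limit to a level near the middle of the genes tested, rank 5914 of 12944 by cKO mean. Its levels were 0.102, 0.0608 and 0.0332 FPKM in the Ctrl hearts, compared with 5.43, 5.04 and 4.14 FPKM in the cKO hearts. All cKO hearts were thus far above all Ctrl hearts. The reads behind these values were 34, 22 and 14 in Ctrl and 1599, 2050 and 1812 in cKO. The Ctrl mean was 0.0655 ± 0.0348 FPKM and the cKO mean 4.87 ± 0.662 FPKM (SD, n = 3 each), a ratio of 74.4. The lowest cKO heart was 40.4 times the highest Ctrl heart. In Ctrl, counting error was wide, with an exact Poisson 95% interval of 0.0182 to 0.0558 FPKM for the 14 reads of replicate 3. Such intervals cover counting error only.

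Cdsn was similarly rare in Ctrl. The Ctrl hearts had 0.333, 0.126 and 0.232 FPKM (17, 7 and 15 reads) and the cKO hearts 8.78, 6.68 and 6.38 FPKM (398, 418 and 430 reads). The groups did not overlap, and the lowest cKO heart was 19.2 times the highest Ctrl heart. Means were 0.230 ± 0.104 and 7.28 ± 1.31 FPKM (SD, n = 3 each), a ratio of 31.7. Within Ctrl the hearts differed 2.65-fold, but with so few reads their Poisson intervals overlapped (0.0505 to 0.259 FPKM for the lowest and 0.194 to 0.533 FPKM for the highest).

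Cyb5r1 differed from the other two in being well expressed in Ctrl. The Ctrl hearts had 7.15, 6.64 and 5.52 FPKM, the cKO hearts 65.0, 48.5 and 54.5 FPKM. Again the groups did not overlap, and the lowest cKO heart was 6.78 times the highest Ctrl heart. The reads numbered 605, 613 and 593 in Ctrl and 4883, 5027 and 6078 in cKO. Means were 6.44 ± 0.832 and 56.0 ± 8.35 FPKM (SD, n = 3 each), a ratio of 8.70. In cKO it ranked 765 of 12944 genes by mean level, against 4891 in Ctrl.

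**Figure D1:**
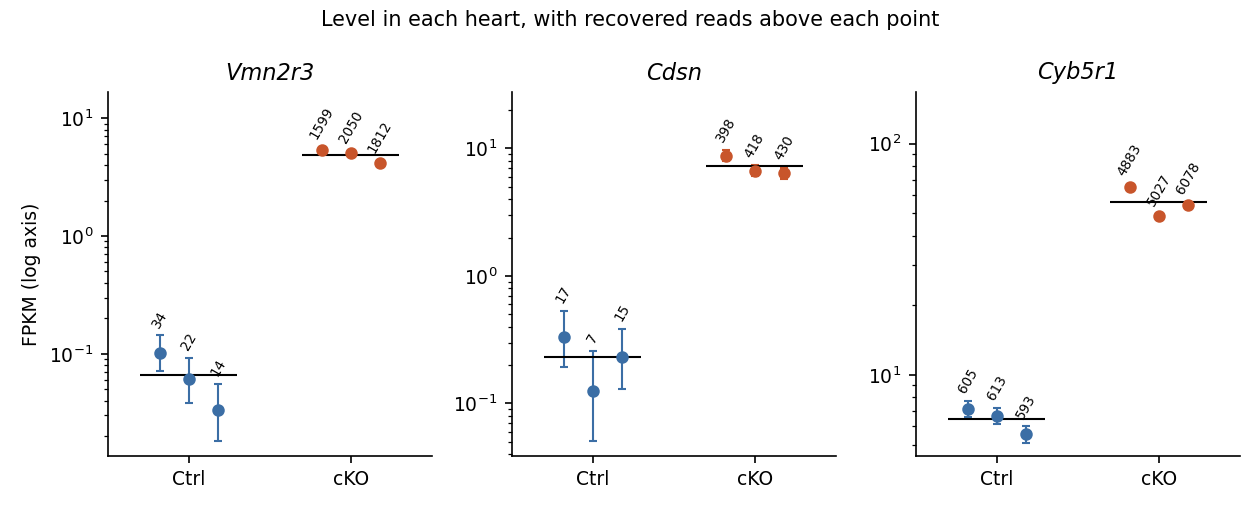
Level of Vmn2r3, Cdsn and Cyb5r1 in each heart, in FPKM on log axes, with Ctrl hearts in blue and cKO hearts in orange. Vertical bars are exact Poisson 95% intervals of the reads, black lines are group means, and the numbers are recovered reads. In each panel the 3 cKO hearts lie above the 3 Ctrl hearts, by 6.78-fold or more.

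Relative to their means, Vmn2r3 and Cdsn varied less between cKO hearts than between Ctrl hearts, whereas Cyb5r1 varied slightly more. The coefficient of variation was 13.6%, 17.9% and 14.9% in cKO for Vmn2r3, Cdsn and Cyb5r1, and 53.2%, 45.1% and 12.9% in Ctrl. In Ctrl, Vmn2r3 had only 14 to 34 reads per heart and Cdsn 7 to 17, so counting error is part of that spread. How large a part was not tested. cKO replicate 1 had the highest level of all 3 genes within cKO, and it was also the shallowest library, with 15989322 reads. Ctrl replicate 1 had the highest level of all 3 within Ctrl. The part of library depth in these orders was not tested. Deviations from the group means correlated with Pearson's r of 0.75 between Vmn2r3 and Cdsn, 0.66 between Cdsn and Cyb5r1 and 0.45 between Vmn2r3 and Cyb5r1, over 6 hearts, which are too few for more than a description.

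Among themselves the genes kept one order by level per length in each of the 6 hearts, Cyb5r1 above Cdsn above Vmn2r3. Cyb5r1 was 69.8 to 166 times Vmn2r3 in Ctrl and 9.62 to 13.2 times in cKO. Cdsn was 2.07 to 6.97 times Vmn2r3 in Ctrl and 1.33 to 1.62 times in cKO. The position of Vmn2r3 in this order depended on the length used. Its gene length in the table, 17411 bases, is the union of the exons of 9 annotated transcripts (GENCODE M21), of which 3 are protein-coding and 6 are models with retained introns or subject to nonsense-mediated decay. Only 16.9% of those bases are coding. If every read came from the longest coding transcript, of 5149 bases, the cKO level would be 16.5 ± 2.24 FPKM (SD, n = 3), above Cdsn in all 3 cKO hearts, and the Ctrl level 0.221 ± 0.118 FPKM. The same step would put Cyb5r1, with 10 transcripts over 4437 exonic bases, at 135 ± 20.2 FPKM in cKO on its coding transcript of 1837 bases, while Cdsn has 1 transcript of 2678 bases and does not change. Gene-level values do not tell which transcripts the reads came from.

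The 3 genes were placed among the 12944 genes that averaged 0.5 FPKM or more across the 6 hearts. All 3 passed this filter, but Vmn2r3 and Cdsn did so only through the cKO hearts, as their Ctrl means were below it. In limma's moderated fit of log2(FPKM + 1) with Benjamini-Hochberg adjustment, 4315 of the genes tested (33.3%) had an adjusted p under 0.05, with 2110 higher in cKO (16.3%) and 2205 lower (17%). The split depended on scaling. Totals of recovered reads without the mtDNA-encoded genes, in place of the deposited scaling, gave 2719 higher and 1609 lower. That is 62.8% of calls higher in place of 48.9%. Every cKO heart was above every Ctrl heart for 24.8% of the genes tested, which included the 3 selected genes. On this scale the log2 fold changes, cKO minus Ctrl, were 2.46 for Vmn2r3 (SE 0.10), 2.74 for Cdsn (SE 0.13) and 2.93 for Cyb5r1 (SE 0.13), against a median of -0.02 over all genes tested. They ranked 26, 18 and 13 of 12944, in that order.

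**Figure D2:**
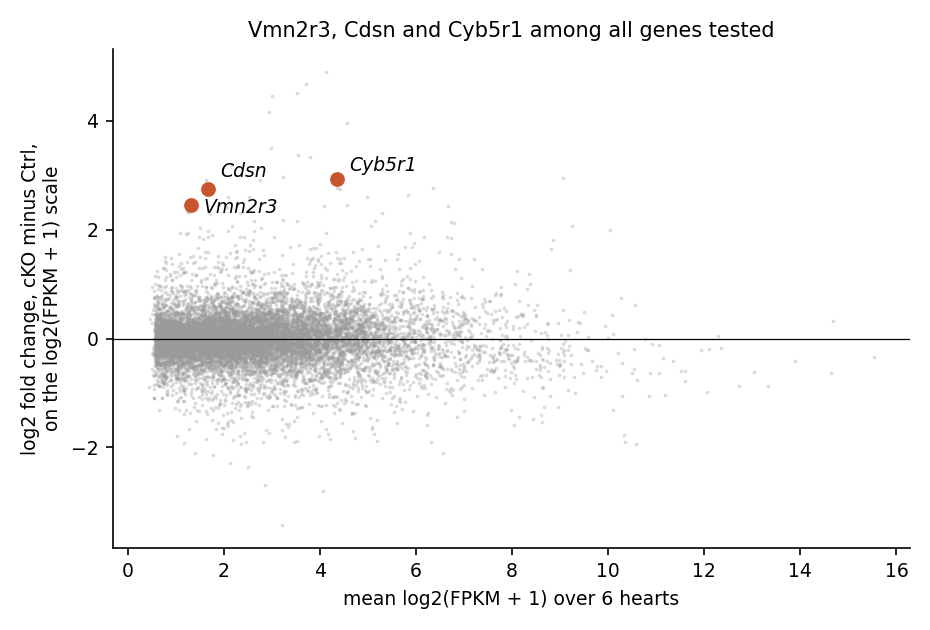
Log2 fold change, cKO minus Ctrl, of the 12944 genes tested (grey points, vertical axis, log2(FPKM + 1) scale) against their mean log2(FPKM + 1) over 6 hearts (horizontal axis). Vmn2r3, Cdsn and Cyb5r1 (orange) lie at 2.46, 2.74 and 2.93, the first 2 near the low end of expression.

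The order of the 3 genes reversed with the scale, because adding 1 to values near 0 compresses their change. By the ratio of mean FPKM, Vmn2r3 was rank 6 of all genes tested, Cdsn rank 19 and Cyb5r1 rank 50. With a pseudocount of 0.1 the log2 fold changes were 4.92, 4.52 and 3.10 for Vmn2r3, Cdsn and Cyb5r1 (ranks 8, 12 and 37). limma's voom on the recovered reads gave 6.37, 5.01 and 3.12, with Vmn2r3 at rank 2. Without cKO replicate 2 the values on the log2(FPKM + 1) scale were 2.43, 2.79 and 3.03.

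The 2 genes next above and below each of the 3 in the order of log2 fold change were as follows. Above Vmn2r3 stood Adm2, a peptide hormone of the calcitonin family (0.0539 ± 0.0933 to 5.19 ± 0.914 FPKM, SD, n = 3 each), and Slc7a3, a cationic amino acid transporter (0.0946 ± 0.0295 to 5.10 ± 1.06 FPKM). Below it were Pmm1, a phosphomannomutase, and Fhl1, a LIM-domain protein of muscle. Cdsn stood between the transcription factor Atf5, with Stbd1, a glycogen-binding protein, above, and Timp1, a metalloproteinase inhibitor, with the glycyl-tRNA synthetase Gars below. Cyb5r1 stood between Nppb, the B-type natriuretic peptide, with Aldh18a1 of proline synthesis above, and Ostn, a peptide that binds the natriuretic clearance receptor, with Trib3, a pseudokinase of the stress response, below. Nppb varied widely within groups, from 231 ± 155 to 1785 ± 1372 FPKM (SD, n = 3 each).

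Whether other receptors of its family moved with Vmn2r3 could be read from the same table, which lists 244 Vmn2r genes, 122 of them pseudogenes. Only 20 had any read in any heart, and 1, Vmn2r3, passed the filter. The other 243 together had 26, 29 and 19 reads in the Ctrl hearts, compared with 12, 26 and 13 in the cKO hearts. That is 74 reads in all of Ctrl and 51 in all of cKO, against 70 and 5461 for Vmn2r3. Of these others, Vmn2r57 was at 0.0539 FPKM in cKO, 0.535 times its Ctrl mean. The 328 type 1 vomeronasal receptor genes (Vmn1r) had 34 reads in Ctrl and 61 in cKO, with 13 genes having a read. The family comprises near-identical copies, so the share of Vmn2r3 sequence found elsewhere was measured. Of 18550 distinct stretches of 150 bases in its transcripts, 106 (0.571%) stood exactly in transcripts of another gene, namely Vmn2r1, Vmn2r2, Vmn2r4 or the pseudogene Vmn2r-ps5. Vmn2r2 and Vmn2r4 had 0 reads in every heart. For Cdsn and Cyb5r1, 0 of 2529 and 0 of 5015 stretches stood in another gene.

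Markers of vomeronasal neurons were at or near 0. Of 13 such genes 10 had no read in any heart, among them the ion channel Trpc2 and the major histocompatibility genes H2-M1, H2-M9 and H2-M11, and none passed the filter. The highest were Gng8 at 0.134 and 0.427 FPKM, Calr4 at 0.0806 and 0.0339 FPKM and Omp, the olfactory marker protein, at 0.0075 and 0.0128 FPKM (Ctrl and cKO means). Their summed level was 0.111 to 0.327 FPKM in Ctrl and 0.226 to 0.780 FPKM in cKO.

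The place of Cyb5r1 within its own family differed between the groups. In Ctrl, Cyb5r3, the main cytochrome b5 reductase of most tissues, led the 5 family members in every heart and Cyb5r1 was second. In cKO, Cyb5r1 was first in every heart. Its share of the summed FPKM of the 5 genes was 15.8%, 15.2% and 12.7% in the Ctrl hearts, compared with 54.3%, 52.5% and 54.8% in the cKO hearts, or 14.6% ± 1.65 and 53.9% ± 1.20 (SD, n = 3 each). The ratio of Cyb5r1 to Cyb5r3 went from 0.232 ± 0.0276 to 1.56 ± 0.0938, and the summed level from 44.1 ± 0.934 to 104 ± 14.3 FPKM. These shares and orders rest on the chosen gene and on the gene lengths used, and are a description.

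The other reductases had smaller changes. Cyb5r3 had 28.9, 26.7 and 27.6 FPKM in Ctrl, compared with 41.8, 33.1 and 32.9 FPKM in cKO. It was higher in cKO by a log2 fold change of 0.35 (SE 0.11; limma adjusted p 0.0418), although it missed the threshold in 6 of 14 alternative analyses, 5 of which left out a heart. Cyb5r4, a soluble reductase with its own b5 domain, rose by 0.35 (4.94 ± 0.205 to 6.59 ± 0.594 FPKM; limma adjusted p 0.0172) and passed in 12 of 14 alternative analyses, with an adjusted p of up to 0.0624 when Ctrl replicate 1 or 2 was left out. Cyb5r2 (3.26 ± 0.634 to 3.89 ± 0.602 FPKM) and Cyb5rl (1.73 ± 0.0508 to 1.45 ± 0.0833 FPKM) did not pass the threshold, with limma adjusted p of 0.306 and 0.141. Por, the reductase that serves cytochromes P450, rose by 0.51 (18.1 ± 1.75 to 26.2 ± 1.98 FPKM; limma adjusted p 0.00850).

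The electron carriers split. Cyb5b, the b5 of the outer mitochondrial membrane, rose from 18.7 ± 0.991 to 27.1 ± 2.71 FPKM (log2 fold change 0.51; limma adjusted p 0.00670). Cyb5a, the b5 of the endoplasmic reticulum, fell from 24.6 ± 1.01 to 18.05 ± 2.23 FPKM (log2 fold change -0.43; limma adjusted p 0.0173). It passed in 11 of 14 alternative analyses, and missed the threshold without Ctrl replicate 1 or 2 and when mtDNA-encoded genes were left out of the scaling (limma adjusted p up to 0.0595). By FPKM, Cyb5b was thus below Cyb5a in every Ctrl heart and above it in every cKO heart. By recovered reads Cyb5b was above Cyb5a in every heart, in Ctrl with 1649, 1671 and 1890 against 1049, 1094 and 1227. The gene lengths were 4374 bases for Cyb5b and 2143 bases for Cyb5a, so the switch depends on the length used. Cyb5d2, a heme-binding b5-like protein, was lower by the same test (3.97 ± 0.239 to 2.88 ± 0.466 FPKM; log2 fold change -0.36; limma adjusted p 0.0370) but passed in only 6 of 14 alternative analyses, and Cyb5d1, at 9.66 to 10.25 FPKM in Ctrl and 7.69 to 10.38 FPKM in cKO, did not pass (limma adjusted p 0.646).

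Among the enzymes that accept electrons from b5, 9 of 13 were tested. Fads3, a desaturase of the fatty acid desaturase family, rose from 23.8 ± 5.87 to 59.0 ± 13.2 FPKM (log2 fold change 1.28; limma adjusted p 0.00602), and Marc2, the mitochondrial amidoxime reducing component, was lower (5.01 ± 0.310 to 4.04 ± 0.264 FPKM; limma adjusted p 0.0430, past the threshold in 5 of 14 alternative analyses). The stearoyl-CoA desaturase Scd1 (6.14 ± 1.63 to 8.25 ± 4.59 FPKM) and the delta-5 desaturase Fads1 (6.02 ± 0.145 to 5.89 ± 0.357 FPKM) did not pass. In the whole cytochrome b5 list without Cyb5r1, 5 of 18 tested genes were higher and 3 lower, 44.4% against 33.3% of all genes tested, with a median log2 fold change of 0.09 against -0.02.

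**Figure D3:**
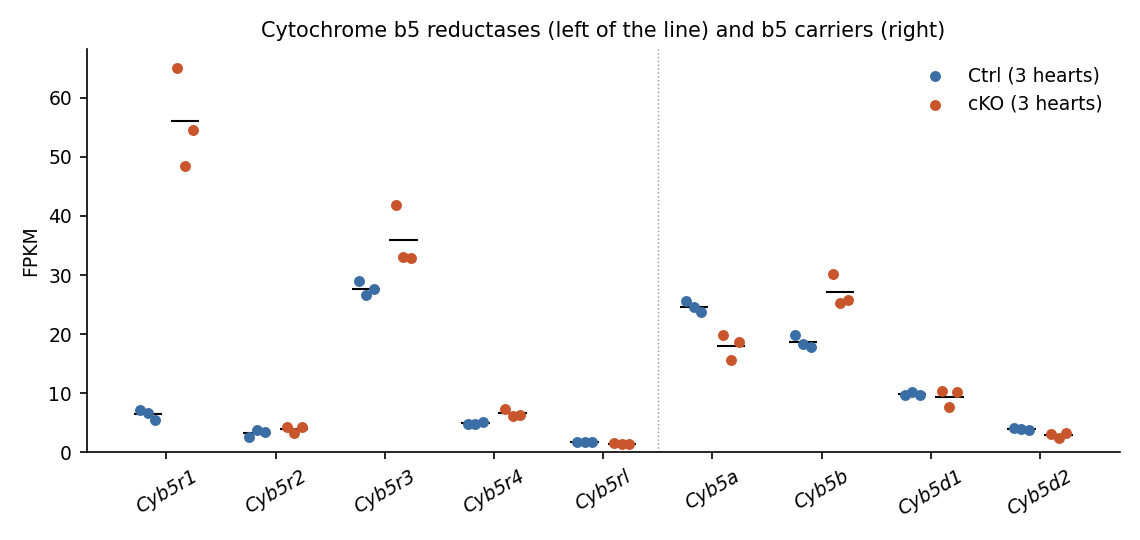
FPKM of the cytochrome b5 reductase family (left of the dotted line) and of b5 carriers (right) in 3 Ctrl hearts (blue) and 3 cKO hearts (orange), on a linear axis from 0, with group means as black lines. Cyb5r1 moved from 6.44 to 56.0 FPKM and passed Cyb5r3, which went from 27.7 to 35.9 FPKM.

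To ask whether the partners of corneodesmosin were also present, genes of the cornified envelope, of desmosomes and of the proteases that cleave corneodesmosin were counted. Of 36 genes in the table, 6 had no read in any heart and 10 were tested, with 4 higher in cKO and 3 lower. That is 70.0% past the threshold, against 33.3% of all genes tested, with a median log2 fold change of -0.22. The desmosomal genes tested included those that cardiomyocytes use at the intercalated disc. Dsp (desmoplakin) fell from 143 ± 12.4 to 102 ± 7.46 FPKM (limma adjusted p 0.0103) and Dsg2 (desmoglein 2) from 13.3 ± 1.03 to 8.19 ± 1.52 FPKM (limma adjusted p 0.0102). Jup (plakoglobin) was lower by a log2 fold change of -0.24 (limma adjusted p 0.0407, past the threshold in 5 of 14 alternative analyses). In the opposite direction, Pkp2 (plakophilin 2) rose from 28.1 ± 2.50 to 39.3 ± 5.47 FPKM (limma adjusted p 0.0222, past the threshold in 11 of 14 alternative analyses and up to 0.0766 with no filter or without Ctrl replicate 1 or 3) and Perp, a membrane protein of desmosomes, was at 65.5 ± 2.93 and 82.2 ± 8.76 FPKM (limma adjusted p 0.0407, past the threshold in 7 of 14 alternative analyses).

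Of 15 cornified envelope genes, only 2 were tested. Sprr1a, a crosslinked envelope precursor that is also known from injured heart and nerve, rose from 0.456, 0.418 and 0.564 FPKM in Ctrl to 4.47, 7.07 and 2.52 FPKM in cKO (log2 fold change 1.86, SE 0.27; limma adjusted p 0.00365). Its highest cKO heart was replicate 2, whereas that of Cdsn was replicate 1. Ppl (periplakin) was at 3.35 ± 0.748 and 1.79 ± 0.714 FPKM (limma adjusted p 0.0583). Of 5 protease or inhibitor genes, 1 was tested. It was Ctsl, the lysosomal protease cathepsin L, which rose from 36.2 ± 4.49 to 68.2 ± 18.4 FPKM (limma adjusted p 0.0157, and 0.0551 without Ctrl replicate 2). In the other direction, Klk14 averaged 0.638 FPKM in Ctrl and 0.107 FPKM in cKO (12, 22 and 18 reads, and 2, 4 and 3 reads). Klk5 had no read, Klk7 averaged 0.0250 and 0 FPKM, and Spink5 0.0033 and 0.0406 FPKM (Ctrl and cKO means). Psors1c2, an epidermal gene and the nearest protein-coding neighbour of Cdsn at lower coordinates, had 0 reads in Ctrl and averaged 0.0327 FPKM in cKO.

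Keratinocyte markers stayed low in both groups. The summed level of 8 such genes was 1.41 to 2.51 FPKM in Ctrl and 1.94 to 2.56 FPKM in cKO. The defining keratins Krt5 and Krt1 were at 0 in Ctrl and averaged 0.0090 and 0.0062 FPKM in cKO, Krt14 averaged 0.0170 and 0.0425 FPKM, and Flg (filaggrin) had no read. Krt10 was the highest at 1.31 ± 0.542 and 1.37 ± 0.353 FPKM (limma adjusted p 0.842), followed by Lor (0.319 and 0.555 FPKM) and Trp63 (0.164 and 0.148 FPKM).

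The chromosomal neighbourhoods were examined next, as neighbours of a gene can change with it. Every other gene of the table with its body within 250 kb was counted, 69 in total. No other gene overlapped Vmn2r3, Cdsn or Cyb5r1 on either strand, in the table or in GENCODE M21. Of the 69 genes, 31 had no read in any heart and 18 were tested, with 4 higher and 1 lower, or 27.8% against the 33.3% of all genes tested. The median log2 fold change of the 18 was 0.02. The largest, Tmem183a at 0.60, was under those of the 3 genes (2.46 to 2.93), which were chosen for a large change.

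Vmn2r3 (ENSMUSG00000091572, chr3:64257215-64289709, minus strand) lay among 17 neighbours, of which 13 had no read. The nearest protein-coding genes were its paralogs, Vmn2r2 at 115 kb towards lower coordinates and Vmn2r4 at 93.3 kb towards higher ones. The only neighbour tested was Gmps, the GMP synthetase, 235 kb away, at 5.77 ± 0.389 and 5.79 ± 0.432 FPKM (log2 fold change 0.00, SE 0.08; limma adjusted p 0.977).

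Cdsn (ENSMUSG00000039518, chr17:35552128-35557180, plus strand) lies in the major histocompatibility region. Its 32 neighbours included Psors1c2 at 17.5 kb and 2300002M23Rik, with 0 reads, at 10.27 kb on the other side. Of 10 neighbours tested 2 were higher, Gtf2h4, a subunit of transcription factor IIH (3.19 ± 0.104 to 4.26 ± 0.458 FPKM; limma adjusted p 0.0266, past the threshold in 8 of 14 alternative analyses), at 111 kb and Ddr1, a collagen receptor kinase (9.06 ± 0.717 to 12.1 ± 0.159 FPKM; limma adjusted p 0.0101), at 124 kb. In the same neighbourhood cKO replicate 2 stood apart in class I histocompatibility genes, which were singled out after their values were seen. H2-Q6 had 7.42, 7.43 and 7.67 FPKM in Ctrl, and 2.92, 16.5 and 4.50 FPKM in cKO. With all hearts H2-Q4, H2-Q6 and H2-Q7 did not pass the threshold (limma adjusted p 0.388, 0.746 and 0.915). Without cKO replicate 2 they were lower, with log2 fold changes of -0.81, -0.87 and -0.46 (limma adjusted p 0.00496, 0.00902 and 0.0169). These genes are close copies of one another, and reads may be shared between them. Cdsn itself, at 6.68 FPKM in cKO replicate 2, was between the other two cKO hearts.

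Cyb5r1 (ENSMUSG00000026456, chr1:134405559-134411740, plus strand) had 20 neighbours, 7 of them tested. Adipor1, an adiponectin receptor, starts 3.64 kb beyond its end on the same strand. It had 36.0, 38.0 and 35.7 FPKM in Ctrl, and 30.5, 29.6 and 32.9 FPKM in cKO, lower by a log2 fold change of -0.23 (limma adjusted p 0.0460), but kept this call in only 3 of 14 alternative analyses. The nearest protein-coding gene on the other side, 4933406M09Rik at 14.6 kb, averaged 0.0091 and 0.0306 FPKM. Tmem183a at 43.6 kb rose from 5.11 ± 0.573 to 8.30 ± 0.925 FPKM (log2 fold change 0.60; limma adjusted p 0.00661), and Rabif, which acts on Rab GTPases, at 82.9 kb rose from 4.69 ± 0.556 to 6.62 ± 0.726 FPKM (log2 fold change 0.42; limma adjusted p 0.0221, past the threshold in 10 of 14 alternative analyses).

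**Figure D4:**
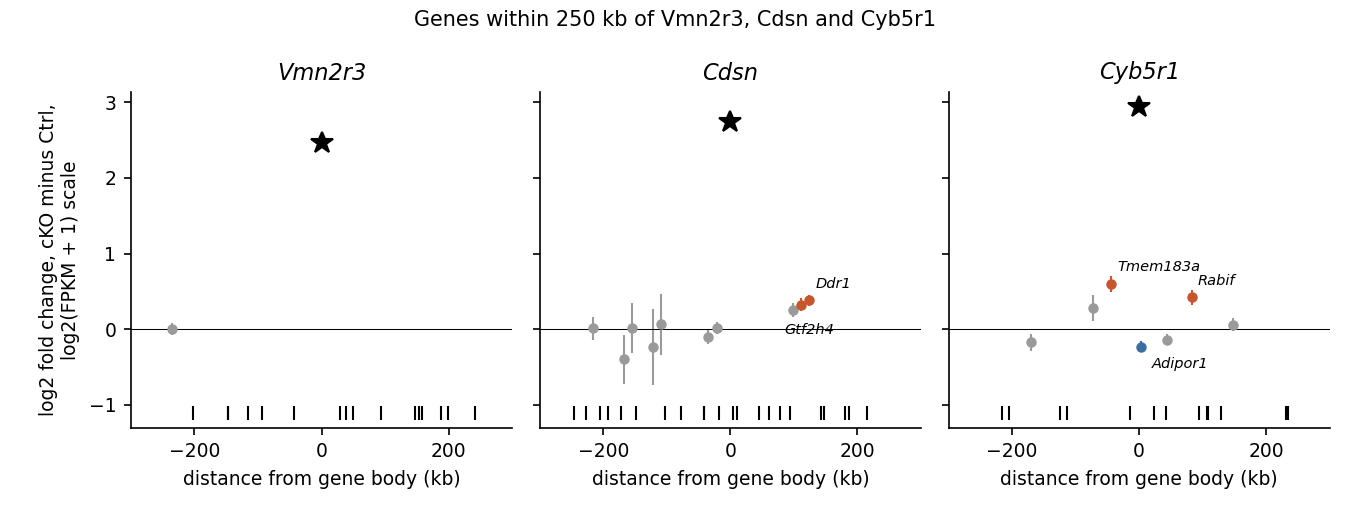
Log2 fold change, cKO minus Ctrl (log2(FPKM + 1) scale), of genes within 250 kb of Vmn2r3, Cdsn and Cyb5r1 (black stars) against the distance between gene bodies in kb, negative towards lower coordinates. Points are tested genes with SE bars, orange where higher, blue where lower and grey where the threshold was not passed, and ticks along the bottom are genes not tested. The highest neighbour, Tmem183a, lies at 0.60, while the stars lie at 2.46 to 2.93.

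In the integrated stress response, phosphorylation of eIF2α favours translation of the transcription factor ATF4. ATF4 in turn raises transcription of genes for amino acid synthesis and transport. A list of genes of this response was taken as a reference for strongly induced genes. Of 39 tested genes of this list 30 were higher and 1 lower (79.5%, against 33.3% of all genes tested), with a median log2 fold change of 1.51. The 3 largest changes were those of Mthfd2, a mitochondrial folate enzyme (4.90), Asns (4.68) and the cytokine Gdf15 (4.51). The log2 fold changes of Vmn2r3, Cdsn and Cyb5r1 were all above the median of the list. These genes were chosen on this contrast, so their place above it is no result. Without cKO replicate 2, 31 stress response genes were higher. The cytochrome b5 counts were 5 higher and 3 lower, and the cornified envelope and desmosome counts 3 higher and 3 lower. Of the neighbours, 3 were higher and 3 lower, the last being the H2-Q genes above. The calls of Cyb5d2, Jup, Perp, Gtf2h4 and Adipor1 were lost in this fit, so equal counts need not stand for the same genes.

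**Figure D5:**
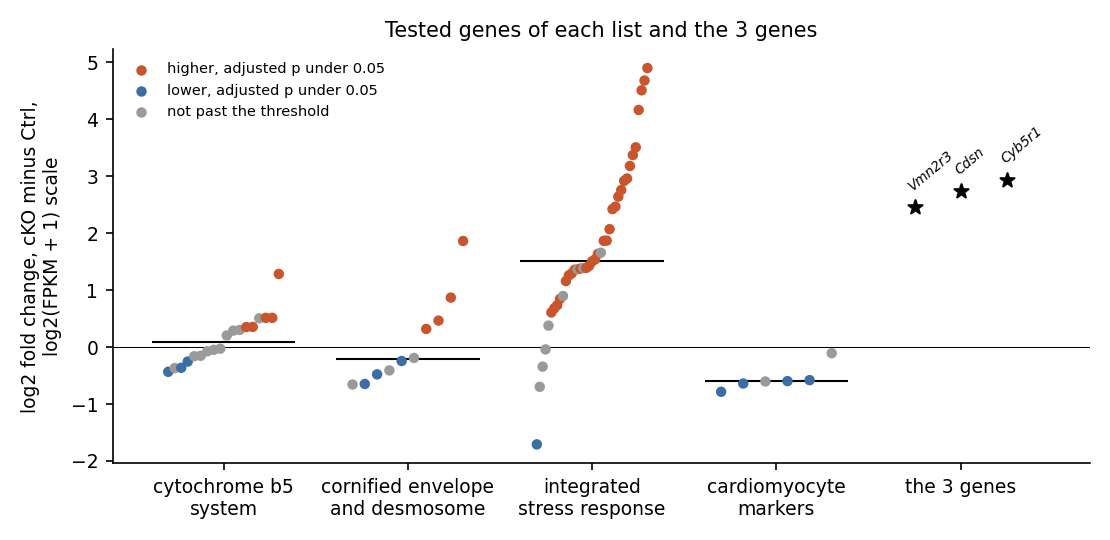
Log2 fold change, cKO minus Ctrl (log2(FPKM + 1) scale), of the tested genes of 4 lists, ordered within each list, with list medians as black lines, and of Vmn2r3, Cdsn and Cyb5r1 as stars. Orange and blue mark genes past an adjusted p of 0.05 (limma). The stress response list has a median of 1.51 and the cardiomyocyte markers one of -0.60, while the stars lie between 2.46 and 2.93.

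Likeness of pattern was described by Pearson's r of log2(FPKM + 1) over the 6 hearts, among 11418 other protein-coding genes tested. These 6 points form 2 groups, so r is high for any gene whose groups stand apart. The 5 genes most like Vmn2r3 were Hax1, an anti-apoptotic mitochondrial protein, Rrn3, an initiation factor of RNA polymerase I, the asparaginyl-tRNA synthetase Nars, the uridine-cytidine kinase Uck1 and the oligosaccharyltransferase subunit Stt3b. Those most like Cdsn were Degs1, a sphingolipid desaturase, Gars, Mrto4 of ribosome assembly, Pycr1 of proline synthesis and Nars. For Cyb5r1 they were Faap20, Phf10, Abce1, a ribosome recycling factor, the leucyl-tRNA synthetase Lars and Fyttd1. All 15 values of r were between 0.9987 and 0.9997. Of the 20 genes most like each, 5, 4 and 4 belonged to the stress response list for Vmn2r3, Cdsn and Cyb5r1. That list made up 39 of the 11418 candidates (0.342%) and 30 of the 1943 candidates that were higher in cKO past the threshold (1.54%). Neither set was matched to Vmn2r3, Cdsn and Cyb5r1 for size of change, and the shares were not tested against each other. The genes and the list were chosen with results of these data known, so the shares are a description only.

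By deviations from the group means, the measure that leaves the group difference out, the nearest genes were others. They were Rfc1, Galk2, Parp3, Alg3 and Map2k3 for Vmn2r3, Gja4, Degs1, Myo1c, Osbpl5 and Klhl8 for Cdsn, and Rpl19, Ttpa, Cpeb1, Slc45a3 and Oraov1 for Cyb5r1, with r of 0.991 to 0.998 over 6 hearts. Degs1 was in both lists of 5 for Cdsn. Of the 20 genes most like each by this measure, 0 belonged to the stress response list for each of Vmn2r3, Cdsn and Cyb5r1. Over so few hearts and so many candidates, such values are a description only.

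Cell type markers moved between the groups beside these results. In whole heart tissue, fewer cells of a type and less RNA per cell cannot be told apart. The 6 cardiomyocyte markers summed to 10228 to 12132 FPKM in Ctrl and 5931 to 9067 FPKM in cKO, and 4 of them, Myl2, Tnni3, Tnnt2 and Ryr2, were lower past the threshold, with Myh6 at 3612 ± 315 and 2463 ± 834 FPKM (limma adjusted p 0.0907). Of 4 endothelial markers 3 were lower (Pecam1, Cdh5 and Tie1), with sums of 103 to 119 and 67.6 to 80.0 FPKM. Of 4 fibroblast markers 1 was lower (Dcn; sums 203 to 226 and 161 to 179 FPKM), and of 4 macrophage markers 1 was lower (Csf1r; sums 88.1 to 121 and 78.7 to 109 FPKM). None of the markers in these 4 lists was higher past the threshold. The part of cell composition in the levels of Vmn2r3, Cdsn and Cyb5r1 was not tested.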

How the data were processed

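RNA from hearts of 3 Ctrl and 3 cKO mice was sequenced as poly(A)-selected libraries. Per the labels, reads were aligned with HISAT2 2.0.5 and counted with featureCounts 1.5.0-p3. The authors deposited 1 table of FPKM per gene and heart with gene lengths and positions, and no raw counts. DESeq2 1.16.1 is also listed in the submitters' processing notes. Those notes name mm9 as the build, but 98.1% of gene IDs have the same position in GENCODE M21 (GRCm38), so GRCm38 was used. How strand and multi-mapping reads were treated is not given in the sources used here.

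Deposited FPKM times the deposited gene length, divided by the value of 1 read in that heart, gave whole reads within 0.01 for 100% of the values checked. The check left out the values with the most reads. Genes that averaged 0.5 FPKM or more were tested with limma 3.58.1 (R 4.3.3), as log2(FPKM + 1), with an intensity trend, two-sided, Benjamini-Hochberg adjusted, threshold 0.05, no covariates. The fit was tested on simulated data. Spreads are SD over 3 hearts per group. The labels call the hearts biological replicates, and p-values measure the spread between these hearts. Gene names that a spreadsheet had turned into dates (27) were restored from their gene IDs, and Ctsv matched no row. Neighbours were genes within 250 kb.

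The 3 genes, the gene lists and the naming rule were chosen with earlier results of these data known. Named genes were the 3 genes, overlapping genes, the nearest protein-coding neighbours and neighbours past the threshold, the other reductases and b5 carriers, in each list those past the threshold and the 3 of highest mean FPKM (for the stress response the 3 largest changes), the 5 genes most alike by either measure, and the 2 next above and below in fold change. Lists of other cell types served as markers, and 1 of them is not reported here. Alternatives were another pseudocount, filters, scalings, voom on recovered reads, no trend, a replicate block and leaving out each heart.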

Additional observations from a re-analysis of the deposited data

How the results depend on the processing

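Under 14 alternatives the 3 genes kept their direction. The log2 fold change of Vmn2r3 (2.46) went to 4.92 with a pseudocount of 0.1 and 6.37 by voom, that of Cdsn (2.74) to 4.52 and 5.01, and that of Cyb5r1 (2.93) to 3.12 by voom. Adding 1 to values near 0 compresses their change, and voom adds no FPKM. Leaving out 1 heart gave 2.39 to 2.55, 2.62 to 2.82 and 2.82 to 3.03 for Vmn2r3, Cdsn and Cyb5r1. It gave 1396 to 1977 genes higher, 1423 to 2011 lower, 2 to 4 cornified envelope and desmosome genes higher, 3 to 5 cytochrome b5 genes higher and 0 to 3 lower, and 2 to 5 neighbouring genes higher and 0 to 3 lower, with fewer hearts. Without a filter, 2 cornified envelope and desmosome genes were higher, 1 cytochrome b5 gene was lower, and 2 neighbouring genes were higher and 0 lower, with more genes tested. Scaling without mtDNA-encoded genes left 0 cytochrome b5 genes and 0 neighbours lower; median-of-ratios scaling and the fit without trend also left 0 neighbours lower. The cause of these last changes was not tested. Cyb5d1 (-0.07) reversed, without a call, to 0.0097 with the former scaling, and ranged from -0.14 to 0.051 when 1 heart was left out, reversing without cKO replicate 2.

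Replicate numbers are shared between the groups, and the main fit did not pair them. Deviations of same-numbered hearts correlated at -0.06, 0.17 and -0.01. Differently numbered hearts were not compared, so these values cannot tell whether same-numbered animals shared a litter or a processing step. With a replicate block, 1874 genes were higher and 1982 lower, and 1 cytochrome b5 gene and 0 neighbours were lower. The cornified list was then 3 higher and 3 lower, and the log2 fold changes of Vmn2r3, Cdsn and Cyb5r1 were 2.46, 2.74 and 2.93.

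Ctrl values of Vmn2r3 and Cdsn rest on 7 to 34 reads per heart, so their ratios are the least precise of those given.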
